A study of Mus musculus with 6 samples.

Results

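Solute carriers are the membrane transporters of the Slc families, and the adrenal gland was examined for how their transcripts differed between mice that lack chromogranin A (Chga) and wild-type mice. The members were all probe sets whose single platform gene symbol has the form of a solute carrier name (Slc or Slco, a family number, a letter and a member number), other than Slc18a1, Slc18a2 and Slc6a2, which carry catecholamines and related amines. The rule took 185 probe sets of 152 genes, out of 12422 probe sets and 8251 named genes on the array. Each gene was represented by its probe set of highest mean over the 6 arrays. RNA came from adrenal glands of male mice at 12 weeks of age, 3 Chga knockout and 3 wild type, with 1 array per sample. The labels refer to an earlier study for the knockout strain, and its genetic background was not used here. Symbols that continue after the member number also met the rule, so that the set holds the scaffold proteins Slc9a3r1 and Slc9a3r2 and the anion exchanger adaptor Slc4a1ap, which transport nothing themselves.

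Solute carriers move sugars, amino acids, ions, metals, nucleotides, vitamins and organic ions across membranes, either down a gradient or coupled to sodium, protons or an exchanged solute. Many lie in the plasma membrane, most Slc25 carriers lie in the inner mitochondrial membrane, and others serve vesicles, lysosomes, the endoplasmic reticulum or the Golgi. The adrenal joins a cortex that makes steroids in mitochondria to a medulla of chromaffin cells that store catecholamines in acidic granules, and both depend on such transport for fuel, pH and precursors. The gland was measured whole, so that fewer cells of a type and less RNA per cell cannot be told apart.

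The brighter Chga probe set read 46719, 30213 and 35306 on wild-type arrays 1 to 3 and 1188.5, 858 and 951 on knockout arrays 1 to 3 (log2 change -5.19 ± 0.20 (SE), limma adjusted p = 5.29e-06), which separated the genotypes as labelled. Each of the 3 chromaffin markers on the array (of 7 listed) read at least 18716 on every array and each of the 5 cortical markers (of 6) at least 40645, so both compartments were represented. Summed signals on the knockout arrays also lay above all wild-type arrays for the chromaffin markers (158020 to 173292, against 133515 to 144928), 5 macrophage markers (8298 to 13500, against 6006 to 8043) and 5 endothelial markers (22391 to 26548, against 16831 to 20440). Every marker of the last 2 lists was on the array and none was at 0. Of these, 4 macrophage and 5 endothelial markers were bright enough to be tested. No tested marker of any list passed. Knockout arrays 2 and 3 differed from the other 4 arrays. Gapdh control probe sets, whose 3' signal over 5' signal is a sign of RNA integrity, gave a ratio of 1.30 and 1.29 there, against 0.83 on knockout array 1 and 0.76 to 0.81 on wild-type arrays. The summed signal of 7 skeletal muscle markers, all on the array, was 53783 and 26192 on these arrays, 3487 on knockout array 1 and 2896 to 3400 in wild type. The median log2 change of the 7 markers, of which 4 were bright enough to be tested, was 3.49, and none was at 0 on any array. The wild-type arrays also differed among themselves. The summed signal of 3 erythroid markers (of 5 listed) was 83688, 171984 and 156232 on wild-type arrays 1 to 3. In knockout it was 74416 to 109476. That of 5 liver markers was 15136, 12059 and 34359 on wild-type arrays 1 to 3 and 16357 to 35074 in knockout. The part of these cell types and of RNA integrity in the results below was not tested. Values with knockout array 1 alone are given beside many of the members. With the Gapdh ratio as a covariate the genotype difference rests largely on the same knockout array, so these fits are not separate checks.

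No solute carrier gene passed the test, although several had higher signals on all 3 knockout arrays than on any wild-type array. Of the 152 genes, 99 lay above the filter on dim probe sets (a mean signal of about 582) and were tested, and 53 did not. With p-values adjusted by Benjamini-Hochberg across the 7453 probe sets tested, 0 of the 99 had a limma adjusted p under 0.05, against 0.443% of all probe sets and 0.388% of the 5663 named genes tested. At an unadjusted p under 0.05 there were 8 members with higher values in the knockout and 3 with lower values, which is 8.08% and 3.03% of the members beside 5.26% and 5.47% of all named genes. The 3 knockout signals lay wholly above the 3 wild-type signals for 13 members (13.1%, against 7.88% of all named genes) and wholly below for 4 (4.04%, against 8.41%).

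The differences were small for most members. The median log2 change was 0.06 over the 99 genes, with 58 higher and 41 lower, beside a median of -0.003 over all named genes, of which 49.7% were higher. The median absolute change was 0.22 for members and 0.19 for all named genes, and 10 members differed by more than 0.5 on the log2 scale. The median coefficient of variation of members between arrays was 13.9% in wild type and 16.9% in knockout (14.1% and 15.4% for all named genes). The number of members with an unadjusted p under 0.05 moved with the arrays used, as did the share over all named genes. It was 11 with all 6 arrays (11.1%, against 10.7% of all named genes) and 20 without knockout array 1 (20.4%, against 16.03%). Without wild-type array 1, 2 or 3 it was 6, 7 and 7 (6.12%, 7% and 7.14%, against 8.55%, 8.40% and 8.96%). With knockout array 1 alone it was 5 of 100 (5%, against 5.09%), which is the background share.

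**Figure D1:**
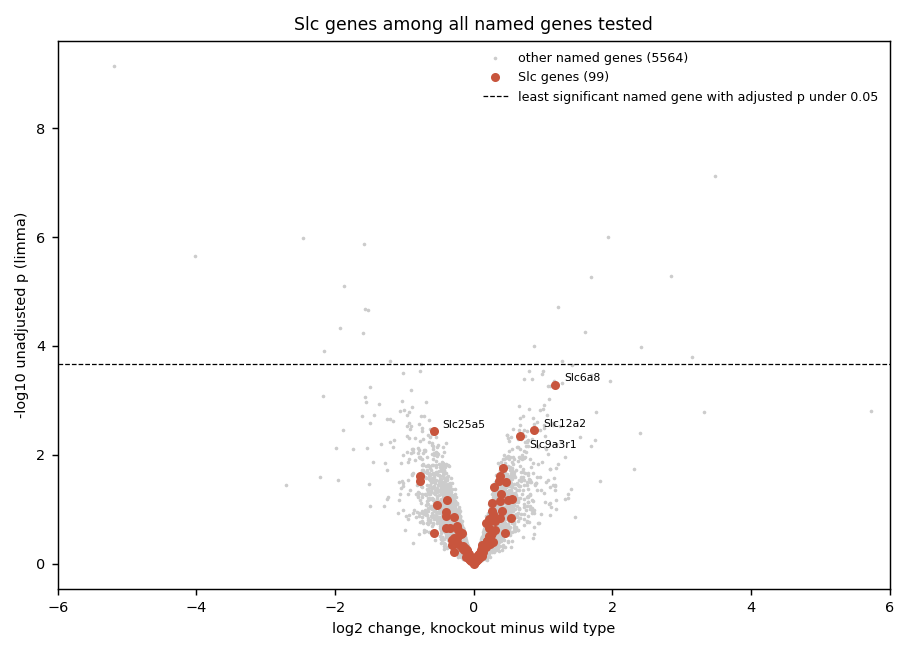
Unadjusted limma p (vertical axis, -log10) against the log2 change, knockout minus wild type (horizontal axis), for the 99 tested Slc genes (red) and the other 5564 named genes (grey). The dashed line marks the least significant named gene with an adjusted p under 0.05, and every Slc gene lies below it, Slc6a8 closest.

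Transporters of amino acids and related compounds held 6 of the 11 members with an unadjusted p under 0.05, 4 higher and 2 lower. That p was reached by 11.1% of all members and by 10.7% of all named genes tested. In these families 20 of 32 genes were tested, 13 with higher and 7 with lower values, and the median log2 change was 0.14. Slc6a8 encodes the creatine transporter, which brings creatine into cells that buffer ATP with phosphocreatine. It read 1524, 1788 and 1920.5 on the wild-type arrays and 2838, 4763 and 4461 on the knockout arrays, a 2.25-fold difference (log2 change 1.17 ± 0.22 (SE), 95% interval 0.66 to 1.67, limma adjusted p = 0.0779). The genotypes did not overlap, and the 2 knockout arrays with high muscle marker sums were the highest. With knockout array 1 alone the log2 change was 0.70, and with the Gapdh ratio as a covariate 0.62. Without knockout array 1 it was 1.40 and passed (limma adjusted p = 0.00989). That fit kept only the 2 knockout arrays with high muscle marker sums and Gapdh ratios. In it 141 probe sets passed, against 33 with all 6 arrays. Slc6a8 also passed with array weights (limma adjusted p = 0.0405). Leaving out each of the 6 arrays in turn gave adjusted p between 0.00989 and 0.337. A second Slc6a8 probe set was dim, with 25.9 to 43.3 on the 6 arrays, and gave no comparison.

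The large neutral amino acid transporters pair a light chain of the Slc7 family with the heavy chain Slc3a2, which brings the complex to the plasma membrane. The heavy chain Slc3a2 read 20121, 18259 and 25417 in wild type and 25999, 27683 and 28087 in knockout (log2 change 0.37 ± 0.14 (SE), limma adjusted p = 0.402). Its partner Slc7a5, the light chain known as LAT1, read 6768, 5813 and 5763 in wild type and 7476, 8720.3 and 7640.4 in knockout (0.38 ± 0.14 (SE), adjusted p = 0.390). Both were higher on every knockout array than on any wild-type array, and neither passed. The alternative light chain Slc7a8, known as LAT2, had lower values, with 1792, 1844 and 1244.5 in wild type and 1192, 636 and 1048.5 in knockout (-0.78 ± 0.29 (SE), 95% interval -1.43 to -0.13, adjusted p = 0.390). The genotypes did not overlap, but the lowest wild-type and the highest knockout signal were close. With knockout array 1 alone the log2 changes were 0.30 for Slc3a2, 0.29 for Slc7a5 and -0.42 for Slc7a8. Other Slc7 light chains, Slc7a6, Slc7a7 and Slc7a11, and the cationic amino acid transporter Slc7a1 were dim. Slc7a9 and Slc7a2 were tested and did not pass (log2 change 0.53 and 0.11, limma adjusted p = 0.581 and 0.899).

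The neutral amino acid exchangers of the Slc1 family also had values of opposite sign. Slc1a4, which carries alanine, serine and cysteine, read 1852, 1886 and 2012 in wild type and 2271, 3280.3 and 2517 in knockout (log2 change 0.47 ± 0.19 (SE), limma adjusted p = 0.404). Its relative Slc1a5, a glutamine carrier, read 1127, 1632 and 1594 in wild type and 574, 1153 and 868 in knockout (-0.77 ± 0.30 (SE), adjusted p = 0.402). The knockout and wild-type signals of Slc1a4 did not overlap, while those of Slc1a5 did by 1 array. Knockout array 1 alone gave a log2 change of -1.30 for Slc1a5 and 0.24 for Slc1a4. The glutamate transporter Slc1a2 varied widely, from 335.5 to 957 in knockout and from 433 to 951.5 in wild type. The taurine transporter Slc6a6 read 17531 to 20686 in wild type and 19593 to 22683 in knockout (log2 change 0.18, adjusted p = 0.623). A second Slc6a6 probe set, left out as dim by its mean, had the opposite sign without overlap, with 987, 1170.0 and 719 in wild type and 432, 425 and 114 in knockout. The neutral amino acid carrier Slc38a2 had a log2 change of -0.13 (adjusted p = 0.835).

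**Figure D2:**
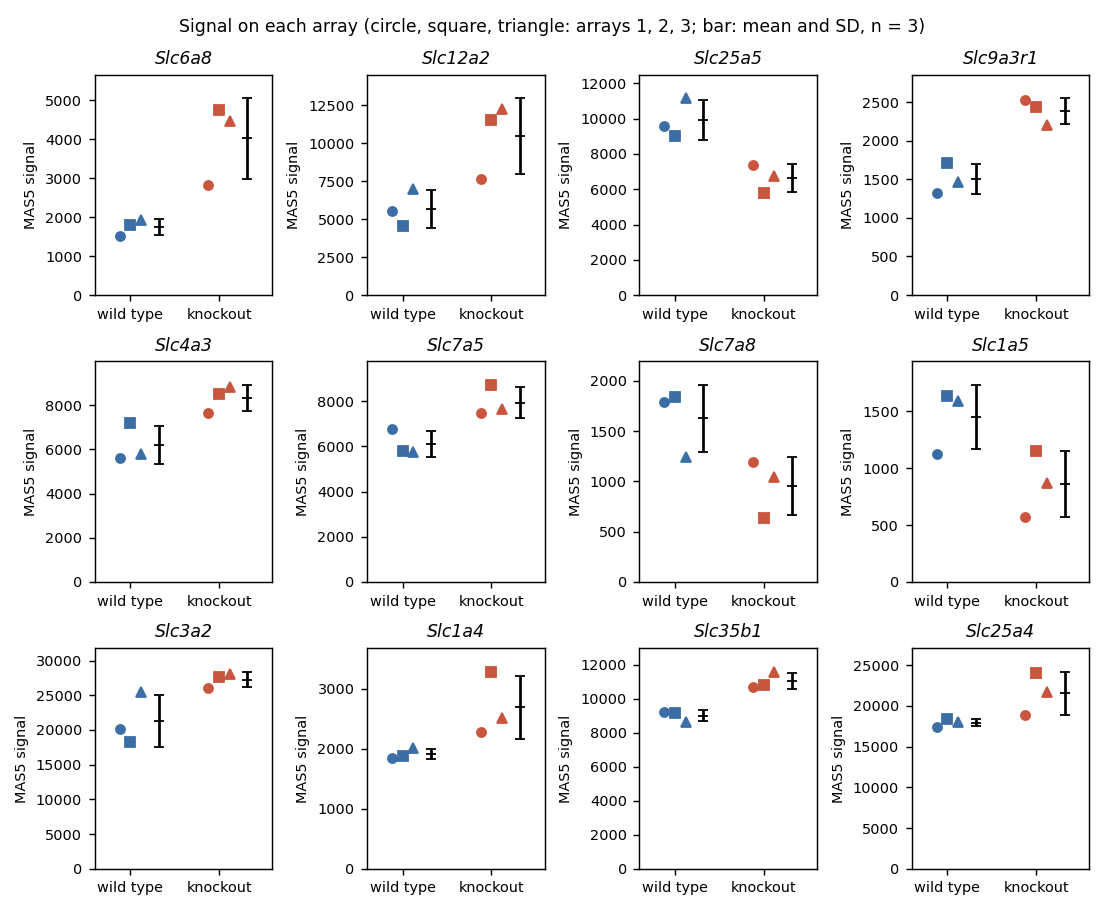
Linear MAS5 signal (vertical axes, from 0) on each wild-type (blue) and knockout (red) array for the 11 Slc genes with an unadjusted p under 0.05 and for Slc25a4, with bars at the mean and SD of 3 arrays. Slc6a8 and Slc12a2 are highest on knockout arrays 2 and 3, and in 11 of the 12 panels, all but Slc1a5, the genotypes do not overlap. The panels were chosen by their values on these arrays, so that count follows largely from the choice. Over all named genes tested, 7.88% lay wholly higher and 8.41% wholly lower in knockout.

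Promoter windows are shown for 3 amino acid transporter members with values of opposite sign, Slc1a4 and Slc3a2 (higher) and Slc7a8 (lower), so that their sequences can be set side by side. Each runs from 250 bases before to 50 after a RefSeq transcription start (GRCm38.p6), read on the strand of the gene, and capitals mark a match to a searched motif other than the GC box.

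Slc1a4, chr11:20332664-20332963, minus strand: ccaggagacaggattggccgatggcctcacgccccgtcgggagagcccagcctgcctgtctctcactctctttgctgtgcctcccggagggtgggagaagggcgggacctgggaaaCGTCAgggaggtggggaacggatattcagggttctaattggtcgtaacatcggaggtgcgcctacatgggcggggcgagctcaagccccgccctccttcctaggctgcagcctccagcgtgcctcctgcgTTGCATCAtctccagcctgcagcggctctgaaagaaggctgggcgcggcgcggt

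Slc3a2, chr19:8713848-8714147, minus strand: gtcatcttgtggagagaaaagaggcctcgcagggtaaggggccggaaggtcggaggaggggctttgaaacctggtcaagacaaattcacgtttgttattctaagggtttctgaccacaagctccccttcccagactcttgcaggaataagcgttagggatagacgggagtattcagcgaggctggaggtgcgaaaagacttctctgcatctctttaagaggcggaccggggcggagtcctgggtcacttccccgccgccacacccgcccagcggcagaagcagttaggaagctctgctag

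Slc7a8, chr14:54781837-54782136, minus strand: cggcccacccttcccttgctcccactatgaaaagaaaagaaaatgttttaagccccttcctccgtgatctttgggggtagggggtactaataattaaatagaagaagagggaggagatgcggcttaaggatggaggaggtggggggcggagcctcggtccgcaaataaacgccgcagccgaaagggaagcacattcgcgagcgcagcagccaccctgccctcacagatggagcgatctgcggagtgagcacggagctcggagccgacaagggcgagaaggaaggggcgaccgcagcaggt

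Of the 152 member genes, 124 had such a window. The motifs searched, on both strands, were the amino acid response element TGATGNAA bound by ATF4, the core of the cAMP response element TGACG, the AP-1 site TGANTCA, the E-box CACGTG, the GC box GGGCGG and the TATA box TATAAA. None of these motifs contains another, and matches of different motifs may share bases. The Slc1a4 window held 1 match to the amino acid response element, 1 to the cAMP response element core and 3 GC boxes, and the windows of Slc3a2 and Slc7a8 held 2 and 1 GC boxes and no match to the other motifs. Over 32851 windows of this length, 3.97% held TGATGNAA, 20.8% TGACG, 7.81% TGANTCA, 7.15% CACGTG, 35.7% GGGCGG and 13.6% TATAAA. Over the 175 windows of member genes the shares were 4% (7 windows), 24.6%, 5.14%, 12% (21 windows), 61.7% and 7.43%. Member windows were richer in G and C, with a median GC content of 60% (all windows 52.7%). A match is a description of the letters and not a bound site.

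Ion and pH families had mostly higher values in the knockout. Of 23 genes 11 were tested, 9 with higher and 2 with lower values and a median log2 change of 0.23, and 3 had an unadjusted p under 0.05, all higher. Over all named genes tested, 5.26% were higher at that p. Without the scaffolds Slc9a3r1 and Slc9a3r2 and the adaptor Slc4a1ap, 8 transporters were tested, 7 with higher and 1 with lower values (median 0.25), and 2 had an unadjusted p under 0.05, Slc12a2 and Slc4a3. Slc12a2, the NKCC1 cotransporter that loads cells with sodium, potassium and chloride, read 5536, 4531 and 7012 in wild type and 7626, 11521 and 12263 in knockout, a 1.83-fold difference (log2 change 0.87 ± 0.22 (SE), 95% interval 0.37 to 1.37, limma adjusted p = 0.206). The genotypes did not overlap, and knockout arrays 2 and 3 lay well above array 1. Without knockout array 1 the log2 change was 1.08 and passed (adjusted p = 0.0343), and with knockout array 1 alone it was 0.44. Leaving out each array in turn gave adjusted p between 0.0343 and 0.592.

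The scaffold Slc9a3r1, also called NHERF1, tethers sodium-proton exchangers and other membrane proteins to the cortical cytoskeleton. It read 1324, 1709 and 1462 in wild type and 2524, 2435 and 2205 in knockout, a 1.59-fold difference with little spread within each genotype (log2 change 0.67 ± 0.18 (SE), limma adjusted p = 0.230). This value was as large with knockout array 1 alone (0.75) and with the Gapdh ratio as a covariate (0.79). The related scaffold Slc9a3r2 was tested as well and did not pass. The anion exchanger Slc4a3, which swaps chloride for bicarbonate, read 5630.5, 7187 and 5789 in wild type and 7652, 8497 and 8809 in knockout (0.43 ± 0.15 (SE), adjusted p = 0.370), and its value was 0.31 with knockout array 1 alone. The potassium-chloride cotransporter Slc12a7, which works in the opposite direction to Slc12a2, read 1916.5, 2567 and 2101 in wild type and 2604, 3237 and 2828 in knockout (0.40 ± 0.18 (SE), adjusted p = 0.446; 0.26 with knockout array 1 alone), and its relative Slc12a4 had a log2 change of 0.23. The sodium-proton exchanger Slc9a8 had a value of 0.27 and the phosphate carrier Slc20a1 one of -0.24, neither past the threshold.

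Mitochondrial carriers held values in both directions. Of 20 genes 16 were tested, 8 with higher and 8 with lower values, with a median log2 change of -0.003. This includes the peroxisomal carrier Slc25a17, without which 15 were tested, 8 higher and 7 lower (median 0.047). The adenine nucleotide translocases Slc25a5 (ANT2) and Slc25a4 (ANT1) exchange ATP made in mitochondria for cytosolic ADP. Slc25a5 read 9576, 9019 and 11167 in wild type and 7351, 5805 and 6748 in knockout, a 1.49-fold lower value (log2 change -0.58 ± 0.15 (SE), 95% interval -0.92 to -0.24, limma adjusted p = 0.208). A second, dimmer probe set of Slc25a5 gave -0.41 (adjusted p = 0.541). Slc25a4 read 17454, 18396 and 17998 in wild type and 18843, 24065 and 21757 in knockout (0.26 ± 0.13 (SE), adjusted p = 0.490). Neither gene overlapped between genotypes on its brightest probe set. Slc25a4 is the form typical of skeletal muscle and heart, and its highest signals fell on the 2 arrays with high muscle marker sums. With knockout array 1 alone its log2 change was 0.07, and that of Slc25a5 was -0.43. The brightest Slc25a5 probe set is of a kind whose probes can match several members of a gene family, so its value is uncertain between these close relatives.

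Slc25a25, a calcium-regulated ATP-Mg/phosphate carrier, was high on 1 knockout array. It read 7562, 6051 and 9023 in wild type and 14992, 8658 and 8820.0 in knockout (log2 change 0.49 ± 0.24 (SE), limma adjusted p = 0.476), and the genotypes overlapped. With knockout array 1 alone its log2 change was 1.01. The ornithine carrier Slc25a15 read 2630.5, 2483 and 2692 in wild type and 2411, 1670 and 1973 in knockout (-0.38 ± 0.18 (SE), adjusted p = 0.476), without overlap. Its log2 change was -0.11 with knockout array 1 alone and -0.069 with the Gapdh covariate. Slc25a17 (-0.53, adjusted p = 0.502), the iron carrier Slc25a28 (0.27, adjusted p = 0.528) and the carnitine-acylcarnitine carrier Slc25a20 (0.22, adjusted p = 0.583) did not pass. Slc25a1, the citrate carrier, had 2 tested probe sets and no value past the threshold.

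**Figure D3:**
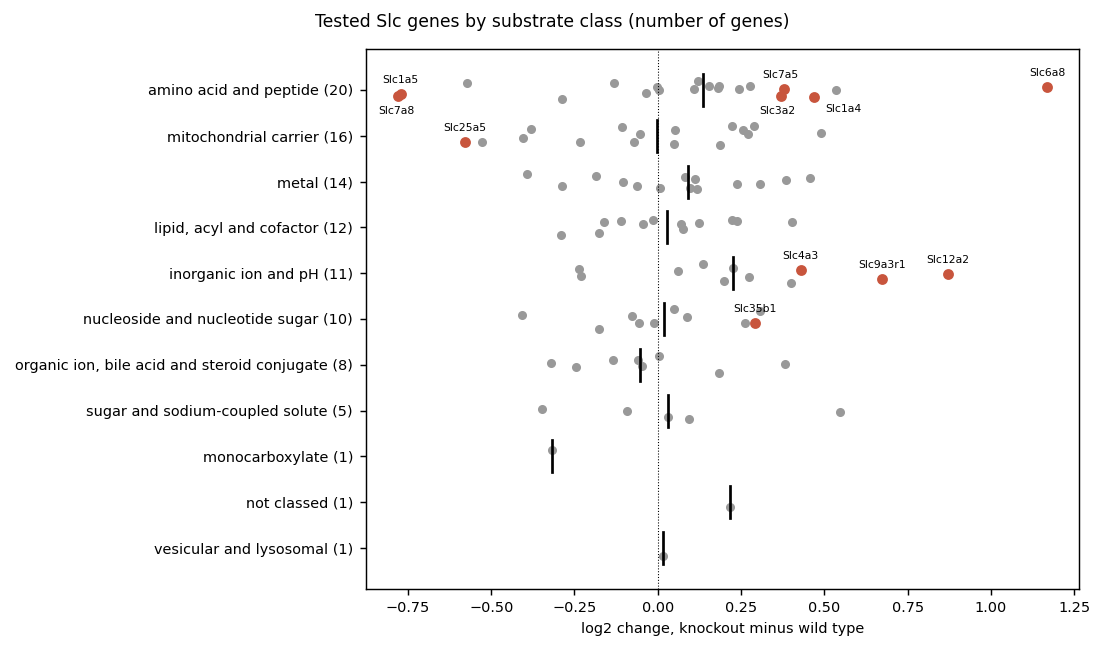
Log2 change, knockout minus wild type (horizontal axis), of each tested Slc gene by substrate class, with the number of genes in parentheses. Red points have an unadjusted p under 0.05, black bars are class medians, and the ion and pH class has the highest median of the classes with 5 or more genes, at 0.23.

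Glucose transporters were few on the array and none passed. Slc2a4, the insulin-responsive GLUT4 of muscle and fat, read 1204, 1211.5 and 1154 in wild type and 1237, 2496 and 1723 in knockout (log2 change 0.55 ± 0.26 (SE), limma adjusted p = 0.475). The genotypes did not overlap, yet knockout array 1 lay only just above wild type, and with that array alone the log2 change was 0.06. The summed signal of 4 adipocyte markers (of 5 listed) ranged from 25535 to 46915 in knockout and from 19524 to 42323 in wild type, and none of the 4 was at 0. Slc2a1, the widespread GLUT1, read 1014, 1105 and 895.5 in wild type and 1027, 721 and 647 in knockout (-0.35 ± 0.27 (SE), adjusted p = 0.659), and Slc2a8 had a log2 change of -0.09. The values of Slc2a1 and Slc2a8 changed sign with knockout array 1 alone, at 0.04 and 0.12.

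Monocarboxylate transporters carry lactate, pyruvate and related acids, and some need the chaperones embigin or basigin to reach the cell surface. The only Slc16 gene above the filter was Slc16a8, which read 800.5, 920.4 and 577 in wild type and 1071, 455 and 440.1 in knockout (log2 change -0.32 ± 0.40 (SE), limma adjusted p = 0.799). Its sign was positive with knockout array 1 alone (0.50). Slc16a1 and Slc16a7 were dim. Embigin, Emb, which is no solute carrier, fell from 7102 ± 751 to 1959 ± 830.3 (SD, n = 3; log2 change -1.92 ± 0.27 (SE), adjusted p = 0.0178), and basigin, Bsg, had a log2 change of 0.003 ± 0.12 (SE).

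Metal transporters had 14 of 16 genes above the filter, and none had an unadjusted p under 0.05. Slc30a9 read 2418.5, 1720.3 and 2152 in wild type and 2018, 1652 and 1176.5 in knockout (log2 change -0.39, limma adjusted p = 0.568; -0.041 with knockout array 1 alone). Slc31a1, the copper importer CTR1, gave -0.29 on its brighter probe set and 0.05 on the other (adjusted p = 0.573 and 0.937). Slc39a1, a zinc importer, gave 0.38 (adjusted p = 0.579) and -0.29 on a dimmer probe set, and its value was -0.04 with knockout array 1 alone. Slc39a3, another zinc importer, had signals of 1323 to 1665 in wild type and 1701 to 2329 in knockout without overlap (0.31, adjusted p = 0.604).

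Carriers of nucleotide sugars feed glycosylation in the endoplasmic reticulum and Golgi. Of 12 genes of the nucleoside and nucleotide sugar class 10 were tested, with 5 higher and 5 lower values. Slc35b1, a nucleotide carrier of the endoplasmic reticulum, read 9232, 9150.2 and 8612 in wild type and 10713, 10785 and 11573 in knockout (log2 change 0.29 ± 0.12 (SE), limma adjusted p = 0.412). The spread within each genotype was small, and the value was 0.25 with knockout array 1 alone. Slc35a2, the UDP-galactose carrier of the Golgi, read 1338, 1197 and 1047 in wild type and 896, 1017.5 and 779 in knockout (-0.41 ± 0.23 (SE), adjusted p = 0.531; -0.40 with knockout array 1 alone), also without overlap. Slc35e4 had a log2 change of 0.31 (adjusted p = 0.678). A second probe set of Slc35e1, an orphan member, read 1495.5, 1421 and 1329 in wild type and 1069.7, 463.1 and 406 in knockout (-1.24, adjusted p = 0.271), while its brighter probe set gave -0.01. It was chosen after its values were seen.

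No carrier of organic ions, lipids or cofactors had an unadjusted p under 0.05. Among 17 genes of the organic ion, bile acid and steroid conjugate class 8 were tested. Slc22a17, a receptor for lipocalin-bound iron, had 3576.5 to 4381 in wild type and 3968 to 5973 in knockout (log2 change 0.38, limma adjusted p = 0.482; 0.049 with knockout array 1 alone). The urate transporter Slc22a12 (-0.25) and the organic cation transporter Slc22a2 (-0.32) did not pass (adjusted p = 0.648 and 0.757). Of 16 lipid, acyl and cofactor carriers 12 were tested, among them the choline transporter-like Slc44a2 (0.40, adjusted p = 0.527; 0.049 with knockout array 1 alone) and Slc44a4 (0.22, 0.658) and the proton-coupled folate transporter Slc46a1 (-0.29, 0.745). Slc50a1, a sugar exporter outside the classes, had a value of 0.22 (adjusted p = 0.603), and Slc66a2, of a family with lysosomal carriers, one of 0.02 (0.980).

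**Figure D4:**
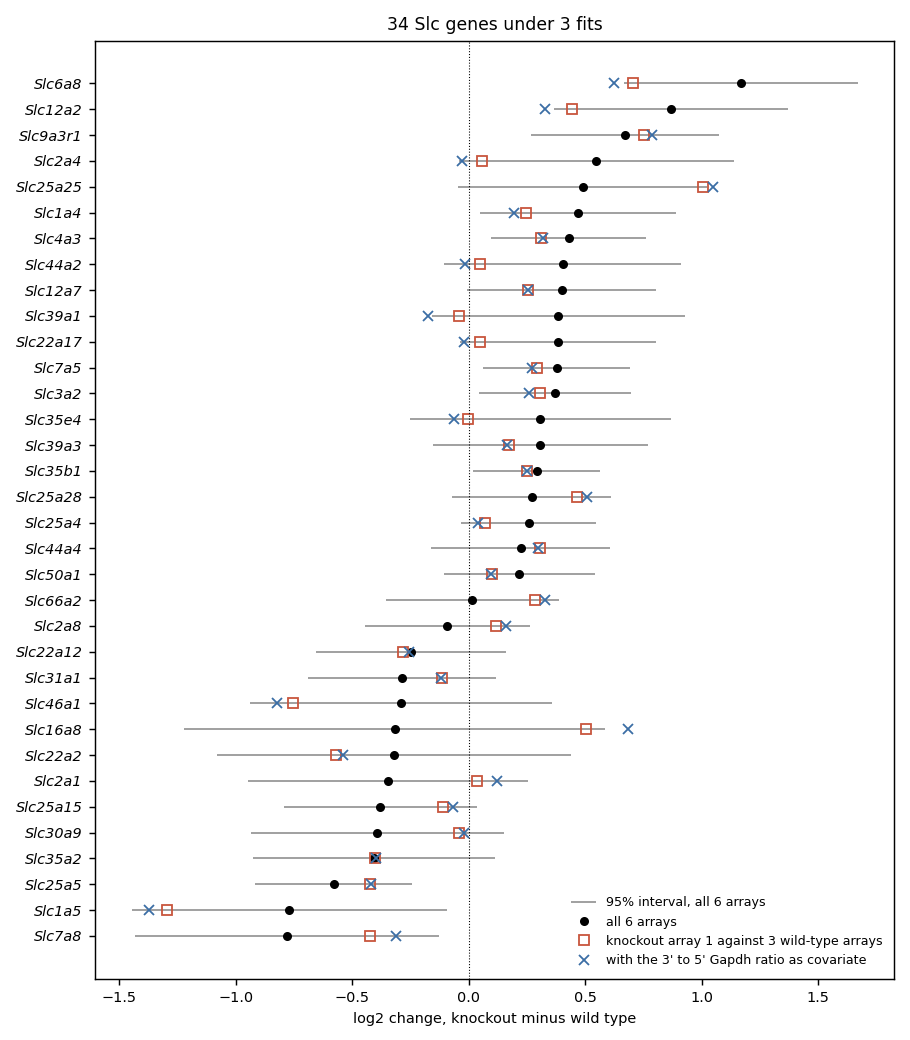
Log2 change, knockout minus wild type (horizontal axis), of 34 Slc genes with all 6 arrays (black, 95% interval as a line), with knockout array 1 against the 3 wild-type arrays (red squares) and with the Gapdh 3' to 5' ratio as a covariate (blue crosses). Slc6a8 stays above 0 at 0.70 and 0.62, Slc9a3r1 at 0.75 and 0.79, while Slc2a4 lies near 0. The squares and crosses both rest largely on knockout array 1 and are not separate checks.

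The 53 dim genes were not tested, and none had 1 genotype wholly above and the other wholly below the filter on its brightest probe set. Among the 20 dim probe sets of genes with a brighter one, this held for the second Slc6a6 probe set given above. In 3 of the dim genes the genotypes did not overlap: Slc17a1 read 334.6 to 420.4 in knockout and 155.8 to 329.6 in wild type, Slc5a1 43.5 to 67.1 and 129.2 to 230.3, and Slc26a1 50.1 to 71.1 and 71.6 to 118.4. The share over all dim genes is not given here. Over all named genes tested it was 7.88% higher and 8.41% lower in knockout. Of the 28 genes with more than 1 probe set, 13 had at least 2 above the filter, and in 8 of these the probe sets had the same sign. In the other 5 (Slc29a1, Slc30a5, Slc31a1, Slc39a1 and Slc39a4) the signs were opposite.

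Transporters, transporter subunits and Kir channels without an Slc symbol were taken from a list by symbol. Of 60 such genes on the array 37 were tested, with a median log2 change of -0.03, and only Emb passed. An unadjusted limma p under 0.05 was reached by 4 of the 37, and by 10.7% of all named genes tested. At an unadjusted p under 0.05 there were 3 with lower values, Emb, the cholesterol exporter Abca1 (14099, 15959.8 and 13610.3 in wild type, 12251, 10182 and 9472 in knockout, log2 change -0.46, limma adjusted p = 0.311) and Abcd4 (-0.66, adjusted p = 0.437). The 1 with higher values was the muscle calcium pump Atp2a1 (2.31, adjusted p = 0.378), which read 579 on knockout array 1, 7845 and 3329.8 on arrays 2 and 3 and 278 to 714 in wild type.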

How the data were processed

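RNA of 6 adrenal samples (3 Chga knockout and 3 wild-type mice, grouped by sample title) was measured on single-colour Affymetrix arrays, 1 array per sample. The deposited values are linear array intensities, and the submitters' processing notes name MAS5 as the tool (version not given in the sources used here). The mean signal after trimming 2% at each end was 2501 on every array, so no further normalization was applied. Precision is limited by the number of arrays, which carry no counting depth.

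Of 12488 probe sets, 66 controls were left out of the tests. Values were transformed as log2(signal + 16), which understates changes of dim genes, and probe sets under the 40th percentile of mean log2 signal were left out. Genotypes were tested by limma 3.58.1 (lmFit, eBayes with trend; R 4.3.3) and Benjamini-Hochberg adjustment over all 7453 probe sets tested, with a threshold of 0.05; the script was tested on simulated data. Errors of log2 changes are standard errors. Gene symbols come from the platform annotation, and all 152 member symbols were the same in the RefSeq table of GRCm38. Signals are compared between arrays and never between genes.

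The genes named are the 3 of smallest p in each substrate class and the 10 non-overlapping genes of largest change, 29 in all. Slc1a5, Slc3a2, Slc25a4, Slc25a28, Slc39a3 and others were chosen after their values were seen. The members and lists were chosen with earlier results of these data known.

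Alternatives planned were other pseudocounts, filters, scalings, variance models, array weights, a block for replicate number, leaving out each array, the mean of a gene's probe sets and a narrower symbol rule. Added after seeing the data were knockout array 1 alone, the Gapdh 3' to 5' ratio as a covariate and the choice of probe set by linear signal.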

Additional observations from a re-analysis of the deposited data

How the results depend on the processing

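The number of Slc genes past the threshold was 0 with all 6 arrays and under every other pseudocount, filter, scaling and variance model tried. It was 1 (Slc6a8) with array weights, with the replicate block and at a threshold of 0.10, and 0 to 2 when an array was left out (2 without knockout array 1, Slc6a8 and Slc12a2). Deviations of same-numbered arrays from their group means correlated at 0.26, -0.035 and -0.039. The labels do not say what a number shares, and whether same-numbered arrays share a batch was not tested. The replicate block gave Slc6a8 a limma adjusted p of 0.0378 and moved the count of probe sets past the threshold from 33 to 57. Without knockout array 1 that count was 141. That count was 17 without an intensity trend, 55 at a threshold of 0.10, 13 with knockout array 1 alone, 12 with the Gapdh ratio as a covariate, and 15 to 141 when an array was left out. Slc genes with an unadjusted p under 0.05 numbered 11 (11.1%, against 10.7% of all named genes), 5 with knockout array 1 alone (5%, against 5.09%), 5 with the Gapdh covariate (5.05%, against 4.94%), and 6 to 20 when an array was left out (6.12% to 20.4%, against 6.85% to 16.03%). Genes whose groups did not overlap numbered 17, with 13 higher (13.1%, against 7.88% of all named genes) and 4 lower (4.04%, against 8.41%). With an array fewer they numbered 23 to 35, where separation needs fewer arrays. The share over all named genes is not given for those fits, so these counts say nothing particular to the members. The median log2 change of Slc genes, 0.06, was 0.011 without a filter, 0.10 with a filter at the 60th percentile, and 0.045 to 0.12 when an array was left out. Other transporters with an unadjusted p under 0.05 numbered 4 of the 37 tested, where the share of all named genes was 10.7%. They numbered 2 with the 60th percentile filter (12.1% of all named genes) and 2 to 5 when an array was left out (6.85% to 16.03%). Except where said, the cause was not tested.

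The fits with knockout array 1 alone and with the Gapdh covariate are not independent. The Gapdh ratio was high only on knockout arrays 2 and 3, so both fits rest largely on knockout array 1. That array and the wild-type arrays also served to choose the genes, so agreement in sign was partly built in. The sign of 26 of 34 named genes held in both added fits. With knockout array 1 alone it turned for Slc39a1 (-0.042), Slc16a8 (0.50), Slc35e4 (-0.0020), Slc2a1 (0.036) and Slc2a8 (0.12), and with the Gapdh covariate for Slc44a2 (-0.015), Slc39a1 (-0.18), Slc16a8 (0.68), Slc35e4 (-0.064), Slc22a17 (-0.021), Slc2a4 (-0.030), Slc2a1 (0.12) and Slc2a8 (0.16). In the planned fits it turned 3 times, all for Slc66a2, at -0.047 with array weights, -0.12 without knockout array 1 and -0.029 without wild-type array 1; its range with an array left out was -0.12 to 0.088.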
